A study of Arabidopsis thaliana with 2 samples.

Results

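The first 21 Mb of chromosome 1 of Arabidopsis thaliana were described through 564 of the 40612 single-nucleotide polymorphisms (SNPs) in the study's list, or 1.39% of them. Members were all listed SNPs of chromosome 1 from position 1 to 21000000 of the TAIR10 build. The stretch makes up 69.0% of the chromosome up to its last listed SNP and holds 11.2% of that chromosome's 5021 SNPs. It was chosen because earlier results on this list showed few SNPs there, so its low density is a description and was not tested.

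The study mapped potent, a dominant mutation that impairs lateral root formation. The mutation came from a Col-0 line carrying the reporters DR5::Luciferase, pWOX5::ER-YFP and pSCR::ER-GFP, mutagenized for 12 hours in 50 mM EMS, ethyl methanesulfonate. Crosses to the reporter line followed (6 rounds). The mutation was kept heterozygous and then brought through 5 rounds of crosses to the ecotype Ler. From about 200 seeds of the fifth Ler cross, seedlings with the potent phenotype and seedlings without it were each collected for DNA sequencing, giving 1 sample of each kind. Seedling age is not given in the sources used here. There was 1 list for the series, whose title calls its SNPs homozygous and carries the letters MT. The sources used here leave MT undefined, and no column names a sample, so which sample the SNPs come from is unknown. No value could be compared between the phenotypes, and no spread between replicates exists. No allele and no read depth is listed, so a stretch without SNPs may be reference sequence, heterozygous sequence or sequence where no SNP could be called.

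Col-0 and Ler differ at many sites along every chromosome, and these sites serve as markers of which ecotype a segment came from. Recurrent crossing with selection for a dominant mutation keeps a segment around that mutation heterozygous, while recombination replaces the rest. Aux/IAA proteins such as IAA18 bind and repress auxin response factors, and auxin triggers their degradation through receptors of the TIR1/AFB family. Changes that stabilise an Aux/IAA protein act dominantly, and several such mutants form few lateral roots. No sequence is printed, because positions alone were used.

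Listed SNPs were spread unevenly within the sparse stretch. Over the whole 21 Mb there were 26.9 SNPs per Mb (95% exact Poisson interval 24.7 to 29.2), against 473 per Mb (459 to 487) in the rest of the chromosome. Intervals here and further on reflect counting alone. Linked SNPs are inherited as a unit, so the true uncertainty is wider. Counts in the 21 consecutive 1 Mb windows ran from 3 to 59, with a median of 25. Windows with 40 or more SNPs numbered 5, of which 4 were consecutive, from 1 to 5 Mb, and the other ran from 8 to 9 Mb. Windows with 8 or fewer numbered 3 and lay far apart, from 6 to 7 Mb, from 14 to 15 Mb and from 19 to 20 Mb.

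**Figure D1:**
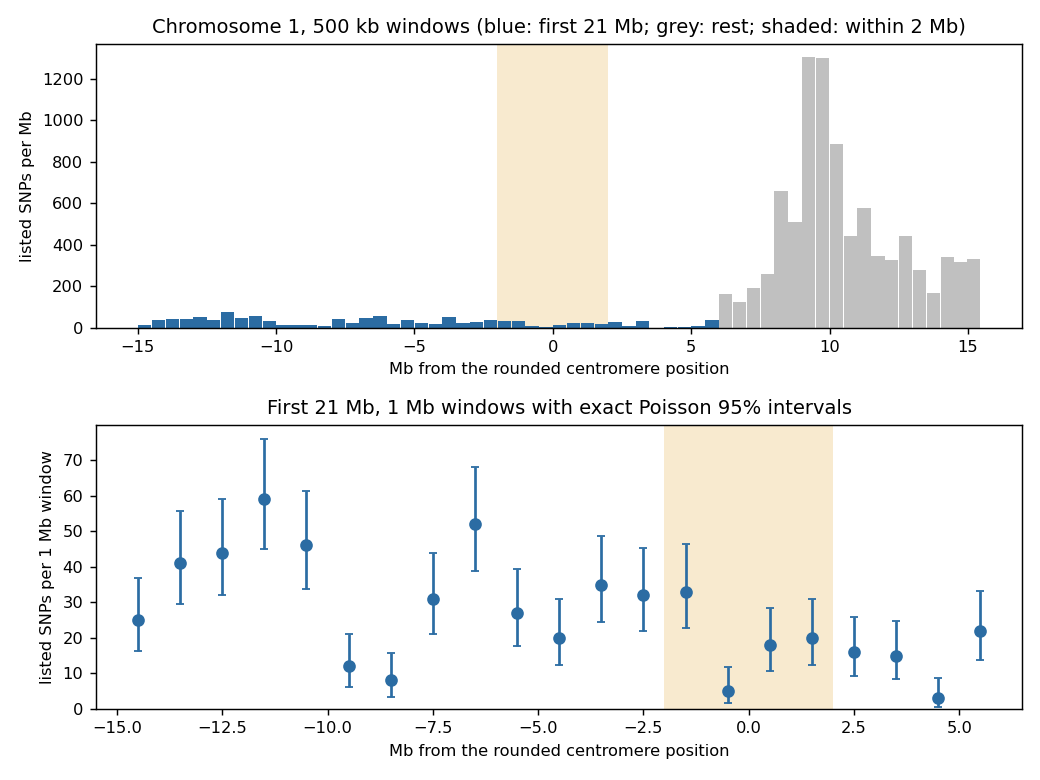
Listed SNPs along chromosome 1 against the distance in Mb from the rounded centromere position, per Mb in 500 kb windows (upper panel, whole chromosome) and as counts in 1 Mb windows of the first 21 Mb with exact Poisson 95% intervals (lower panel). The lower panel shows 3 separate low points, with 8, 5 and 3 SNPs, and the highest window at 59.

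Density fell and rose again along the first arm. Up to 5 Mb there were 215 SNPs, at 43 per Mb (37.4 to 49.1), with successive 1 Mb windows at 25, 41, 44, 59 and 46. The next 2 Mb held 20 SNPs, or 10 per Mb (6.11 to 15.4), with windows at 12 and 8. From 7 to 13 Mb the count returned to 197 SNPs, or 32.8 per Mb (28.4 to 37.8). The dip between 5 and 7 Mb had a density 0.233 times that of the first 5 Mb (exact conditional 95% interval 0.139 to 0.368) and 0.305 times that of the following 6 Mb (0.182 to 0.483). It lay in a gene-rich arm, with 290 protein-coding genes per Mb against 293.4 in the first 5 Mb. The dip was chosen after its values were seen.

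SNPs were sparser around the centromere than in the first arm, but the sequence after the centromere was not fuller than the centromere itself. Within 2 Mb of the rounded centromere position at 15 Mb there were 76 SNPs, or 19 per Mb (14.97 to 23.8). The first arm, up to 13 Mb, held 432, or 33.2 per Mb (30.2 to 36.5). The ratio of the centromere to the arm was 0.572 (exact conditional 95% interval 0.442 to 0.731), and it was 0.346 (0.217 to 0.526) when only 1 Mb on either side was taken. From 17 to 21 Mb there were 56 SNPs, or 14 per Mb (10.6 to 18.2). This last part stood at 0.421 times the first arm (0.313 to 0.557) and 0.737 times the centromere (0.512 to 1.05), an interval that includes equal densities. The dip at 5 to 7 Mb, chosen after its values were seen, was also below the centromere, at 0.526 times its density (0.305 to 0.870).

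The density around the centromere was not even. Its 4 windows of 1 Mb held 33, 5, 18 and 20 SNPs, so that the window from 13 to 14 Mb was as full as the arm beside it, whose last window held 32. The low window from 14 to 15 Mb held 22 protein-coding gene starts and the one after it 18, whereas windows of the first 5 Mb each held at least 286. The window from 19 to 20 Mb, the lowest of the 21 with 3 SNPs, held 258.

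Long SNP-free stretches occurred both in gene-poor and in gene-rich sequence. The 564 SNPs leave 563 distances between neighbours, with a median of 14.2 kb and a mean of 37.0 kb. The 52 longest, each of at least 98.4 kb, cover 50% of the span from the first to the last SNP. Gaps of 200 kb or more numbered 15 and covered 24.4% of that span. They lay in the first arm (5 gaps, 1301 kb in all), around the centromere (4 gaps, 1472 kb) and after it (6 gaps, 2314 kb).

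Gaps around the centromere held few protein-coding genes. There the gaps of 200 kb or more, of 424, 422, 342 and 285 kb, held 4, 3, 5 and 17 genes. Genes covered between 1.99% and 8.77% of their bases. The other 11 gaps of 200 kb or more held between 46 and 241 protein-coding genes each. In the first arm the longest were the gap from position 6457704 to 6831320, of 374 kb with 109 genes, and that from 5671547 to 5945284, of 274 kb with 83 genes. Both fall in the dip from 5 to 7 Mb.

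**Figure D2:**
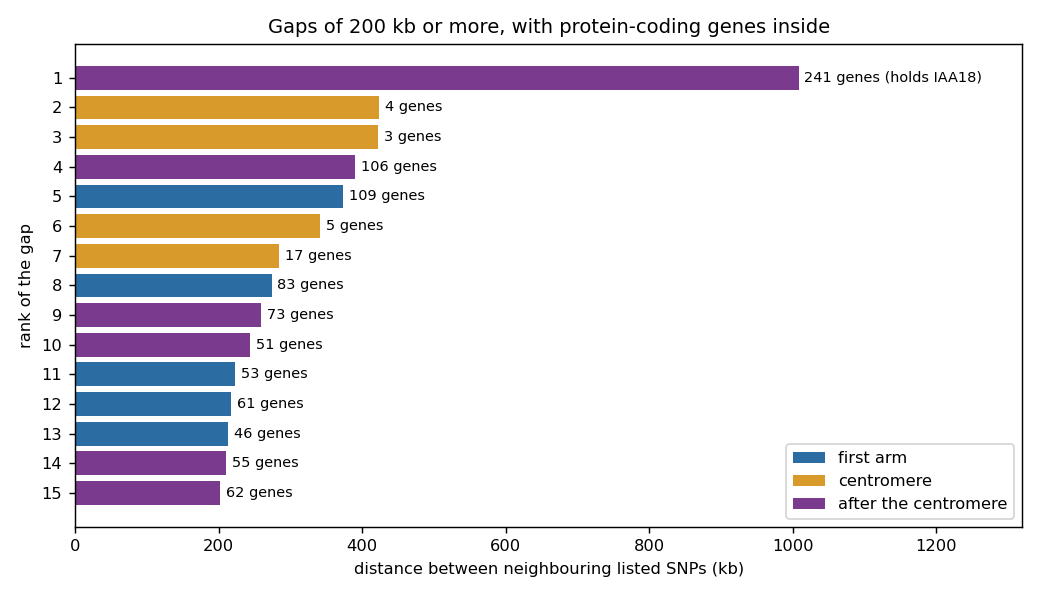
The 15 gaps of 200 kb or more, as bars of their length in kb from longest to shortest, coloured by their place on the chromosome, with the number of protein-coding genes inside each. The longest, 1008 kb with 241 genes, is the one that holds IAA18, and the 4 gaps around the centromere hold between 3 and 17 genes.

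The longest gap of the stretch ran from position 18390817 to 19398860 and held IAA18 (AT1G51950). Its 1008 kb are over 2 times the length of the next gap, and protein-coding genes covered 61.5% of its bases. The SNP that opens it lay 0.294 kb from AT1G49700 and the SNP that closes it 0.616 kb from AT1G52120, both outside annotated genes. Sparse sequence went on beyond it. After the gap, SNPs were listed at 19457325, inside AT1G52240, and at 19641166, inside AT1G52720. They were followed by 20031697, 20233892, 20492806 and 20686422, none of them inside an annotated gene. The distances between these successive SNPs included gaps of 391, 202 and 259 kb.

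Over the 2.4 Mb that end at 20.8 Mb, 7 SNPs were therefore listed, or 2.92 per Mb (95% exact Poisson interval 1.17 to 6.01). That is 0.0878 times the density of the first arm (exact conditional 95% interval 0.0351 to 0.182) and 0.154 times that of the centromere (0.0597 to 0.332). These limits were set after the values were seen, around the gap, so the ratios describe how low the stretch was and are no test.

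Around IAA18 the listed SNPs were lopsided. None lay within 500 kb before the gene, and the nearest on that side was 914 kb away. After the gene the nearest was 91.3 kb away, and 3 lay within 500 kb. Within 1000 kb there were 4 before and 5 after. At 2000 kb the counts were 22 before and 65 after, and at 3000 kb they were 44 and 234, since the second side then takes in the dense end of the chromosome. The genes next to IAA18, LYK3 (AT1G51940), a receptor-like kinase with LysM domains, and IQD27 (AT1G51960), of the calmodulin-binding IQD group, had 0 listed SNPs and lay 99.7 and 87.2 kb from the nearest one. ABO5 (AT1G51965) and AT1G51930, one gene farther out on each side, also had 0.

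**Figure D3:**
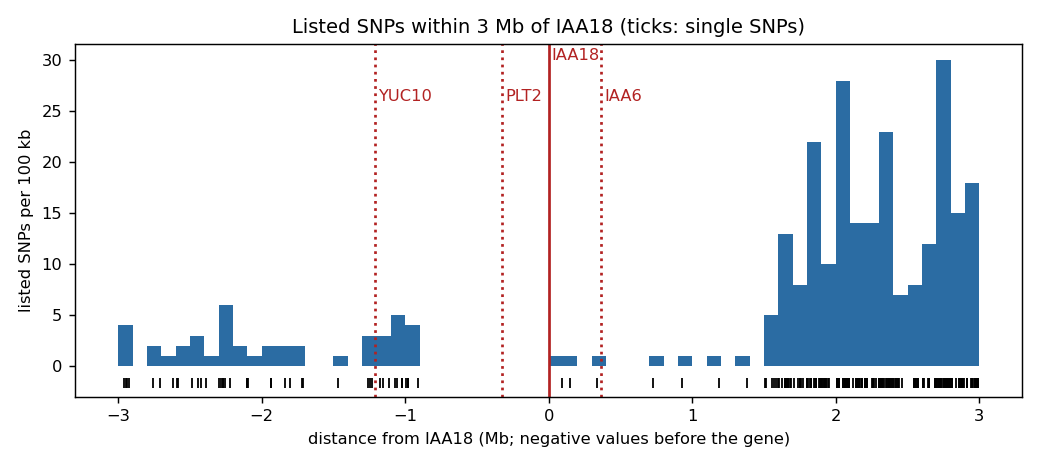
Listed SNPs per 100 kb against distance from IAA18 in Mb, with single SNPs as ticks and YUC10, PLT2 and IAA6 marked by dotted lines. The 914 kb before IAA18 are empty, 5 SNPs lie in the first 1000 kb after it, and the counts rise about 1.5 Mb after it.

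IAA18 was not the gene farthest from a listed SNP. Of the 4722 protein-coding genes in the first 21 Mb, 453 (9.59%) lay farther from one than IAA18, and 202 of these were in the same gap. The 131 genes more than 250 kb from any listed SNP were all in this gap. This follows from gap lengths alone, since no other gap is long enough to hold such a gene. PLT2 (AT1G51190), which encodes an AP2-domain regulator of the root stem cell niche, lay 324 kb before IAA18, nearer the middle of the gap, and 418 kb from the nearest SNP. IAA6 (AT1G52830), another Aux/IAA repressor, lay 365 kb after IAA18, outside the longest gap but inside the 391 kb gap from 19641166 to 20031697. It was 31.3 kb from the nearest SNP before it and 358 kb from the nearest after it. YUC10 (AT1G48910), a flavin monooxygenase of auxin synthesis, lay 1211 kb before IAA18, between SNPs 15.2 and 37.5 kb away.

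The limit at 21 Mb falls inside a rise and not at its start. The last SNP inside was at position 20997487 and the first outside at 21018925, 21.4 kb apart. In successive 100 kb windows from 20.4 Mb the counts were 1, 0, 1, 0, 5 and 13 up to 21 Mb. Beyond 21 Mb they were 6, 18, 16, 26, 16 and 11. The last 0.2 Mb inside the limit held 18 SNPs, or 90 per Mb (95% exact Poisson interval 53.3 to 142), and the first 0.2 Mb outside held 24, or 120 per Mb (76.9 to 179). These intervals overlap. Of the 22 SNPs from 20 to 21 Mb, 18 thus lay after 20.8 Mb. Without them, 546 SNPs remained up to 20.8 Mb, at 26.2 per Mb (24.1 to 28.5).

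How many SNPs stood alone depended on the distance taken. A listed neighbour lay within 10 kb of 362 of the 564 (64.2%, 95% exact binomial interval 60.1 to 68.1). With neighbours joined when at most 1 kb apart, 395 SNPs were single and 169 fell into 77 groups. Of these groups 65 were pairs, 10 held 3 SNPs, 1 held 4 and 1 held 5. The group of 5 spanned 993 bp from position 7458415, outside annotated genes and 2.92 kb from AT1G21320. The group of 4 spanned 1082 bp from position 3252473, inside AT1G09970, a receptor-like kinase gene also called RLK7. In 30 of 563 distances the neighbours were at most 10 bp apart, and 11 of these were adjacent bases.

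A listed neighbour within 1 kb was present for 30.0% of the SNPs (95% exact binomial interval 26.2 to 33.9). Among 2 other sparse stretches, the share was 25.6% (21.5 to 30.0) on chromosome 4 from 10 Mb and 34% (29.0 to 39.2) on chromosome 5 from 18 Mb. Both intervals overlap that of chromosome 1. In the dense end of chromosome 1, from 21 Mb, it was 77.8% (76.5 to 79.0), a share that moves with density itself. The median distance was 14.2 kb here, 10.7 kb on chromosome 4 and 12.1 kb on chromosome 5, while the mean was 37.0, 20.1 and 25.6 kb. The mean was thus 2.61 times the median here, against 1.88 and 2.12 times there. In the dense end of chromosome 1 it was higher, at 3.18 times. The longest gap here, of 1008 kb, stood beside 221 kb on chromosome 4 and 282 kb on chromosome 5. The 3 stretches differ in length and density, which bear on these distances: chromosome 4 gives 8.55 Mb at 49.8 SNPs per Mb and chromosome 5 gives 8.93 Mb at 39.2, against 21 Mb at 26.9 here with a centromere included.

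Protein-coding genes held fewer listed SNPs per base than the sequence around them. Inside them lay 254 SNPs, 45.0% (95% exact binomial interval 40.9 to 49.2), although they cover 53.6% of the bases. The density was 22.6 per Mb inside (95% exact Poisson interval 19.9 to 25.5) and 31.8 outside (28.4 to 35.6), a ratio of 0.709 (exact conditional 95% interval 0.599 to 0.840). Outside every annotated gene lay 286 SNPs, 50.7% of them in 36.7% of the bases. Pseudogenes held 16 SNPs, 2.84% in 8.49% of the bases, and long non-coding RNA genes held 5.

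The gene content of the 3 parts of the stretch differed, and with it the share of SNPs in genes. In the first arm 224 of 432 SNPs were in protein-coding genes (51.9%), at 26.6 per Mb inside (23.3 to 30.4) and 45.3 outside (39.4 to 51.9). Around the centromere 7 of 76 were (9.21%), in genes that cover 12.3% of the bases, at 14.2 per Mb inside (5.70 to 29.2) and 19.7 outside (15.3 to 24.9). Between 17 and 21 Mb 23 of 56 were (41.1%), at 9.78 per Mb inside (6.199 to 14.7) and 20.03 outside (13.8 to 28.1). The inside-to-outside ratio was 0.588 in the first arm (exact conditional 95% interval 0.485 to 0.713) and 0.488 after the centromere (0.274 to 0.857). Around the centromere it was 0.720, with an interval of 0.279 to 1.57 that includes 1.

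**Figure D4:**
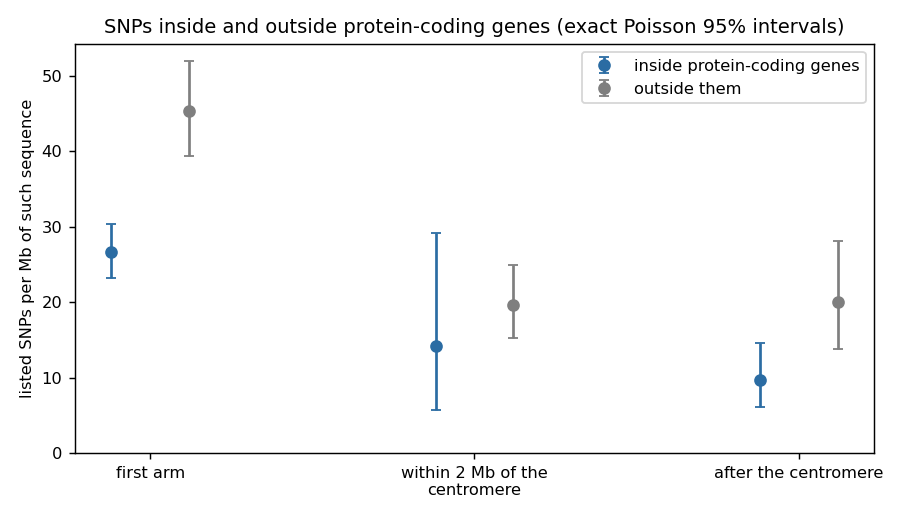
Listed SNPs per Mb of sequence inside and outside protein-coding genes, in the first arm, within 2 Mb of the centromere and after it, with exact Poisson 95% intervals. The inside value is the lower in all 3 parts, and the intervals overlap around the centromere and, narrowly, after it.

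The same ordering was present elsewhere. The inside-to-outside ratio was 0.421 (0.346 to 0.511) in the sparse stretch of chromosome 4, 0.449 (0.361 to 0.557) in that of chromosome 5 and 0.660 (0.622 to 0.700) in the dense end of chromosome 1. The interval of the first arm overlapped all 3. For the whole 21 Mb, which includes a gene-poor centromere, the interval lay above those of chromosomes 4 and 5.

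Few genes of the stretch held a listed SNP, which goes with its choice for few SNPs. Of the 4722 protein-coding genes, 205 (4.34%) did: 163 held 1, 36 held 2, 4 held 3 and 2 held 4. The share was 5.21% (182 of 3491) in the first arm, 2.61% (6 of 230) around the centromere and 1.7% (17 of 1000) after it, and 8 of those 17 genes lay in the last 0.2 Mb. Elsewhere it was 7.05% on chromosome 4 from 10 Mb, 5.42% on chromosome 5 from 18 Mb and 42.2% in the dense end of chromosome 1. Since no allele is given, natural differences between the ecotypes and changes made by EMS cannot be told apart, and a SNP in a gene says nothing of its function.

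The 2 genes with 4 SNPs were RLK7, at 1.09 per kb of gene, and EMB2421 (AT1G24340), named for an embryo-defective phenotype, at 1.05 per kb. Those with 3 were emb2386 (AT1G02780), also named for an embryo-defective phenotype, PFA-DSP1 (AT1G05000), a dual-specificity phosphatase, RKF1 (AT1G29750), a receptor-like kinase of flowers, and AT1G30860. Per kb these ran from 0.433 in RKF1, the longest at 6.92 kb, to 1.73 in emb2386, the shortest at 1.74 kb. The first 4 of the genes with 2 SNPs, in order of position, were AT1G04360, AT1G04430, AT1G04540 and AT1G05035. All 10 genes lay in the first arm, which for the last 4 follows from taking ties in order of position. The first arm held 182 of the 205 genes with a SNP and 3491 of all 4722.

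None of the auxin and root genes that lie in the stretch held a listed SNP. They number 30 of 111 genes in 6 lists: 8 Aux/IAA repressors, 11 auxin response factors, 3 genes of auxin perception and co-repression, 5 of auxin synthesis, 1 of auxin transport and 2 of the root meristem. Set against the 4.34% of all protein-coding genes here, a count of 0 among 30 is near the background and is no result about these genes. The median distance to the nearest listed SNP was 13.3 kb over the 30 and 17.6 kb over all protein-coding genes of the stretch.

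Aux/IAA genes ranged from 0.698 to 91.3 kb from the nearest SNP. IAA17 (AT1G04250) had a SNP 0.698 kb after it and another 1.85 kb before it. IAA12 lay 2.78 kb and IAA3 3.58 kb from one. These 3 repressors are known from dominant mutants, called axr3, bodenlos and shy2. IAA5 was 7.81 kb away, IAA6 31.3 kb, IAA10 35.3 kb, IAA34 44.8 kb and IAA18 91.3 kb, the farthest of the 8.

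Auxin response factors, the transcription factors that Aux/IAA proteins repress, ranged from 1.30 kb for ARF15 to 170 kb for ARF19. ARF19 acts with ARF7 in lateral root initiation and lay inside the 374 kb gap of the dip, with 0 SNPs within 100 kb and 2 within 250 kb. ARF5, or MONOPTEROS, needed for the embryonic root, lay beyond that gap, between SNPs 55.3 and 32.9 kb away. The 7 related genes ARF12 to ARF15 and ARF20 to ARF22 lie between 12 and 14 Mb and were 1.30 to 18.2 kb from a SNP. ARF6 lay 5.51 kb and ARF23 12.5 kb away.

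Among genes of auxin perception, AXR1, part of the enzyme that activates the receptor's ubiquitin ligase, lay 15.1 kb from a SNP. The receptor gene AFB3 lay 15.5 kb away, and TPL, or TOPLESS, the co-repressor that Aux/IAA proteins recruit, 37.6 kb. Auxin synthesis genes ranged from 5.08 kb for TAR1, a tryptophan aminotransferase relative, to 41.8 kb for YUC3, with YUC9 at 7.99 kb, YUC11 at 13.2 kb and YUC10 at 15.2 kb. The efflux carrier PIN7 lay 0.768 kb from a SNP. FEZ, a regulator of root cap stem cell divisions, lay 24.2 kb away. Of the 30 genes, PLT2, ARF19 and IAA18, at 418, 170 and 91.3 kb, were more than 50 kb from a listed SNP. The share of all protein-coding genes beyond 50 kb was not computed. Beyond the 91.3 kb of IAA18 that share was 9.59% (453 of 4722), and of the 30 genes PLT2 and ARF19 lay beyond it. The count of 3 beyond 50 kb has no background share beside it, so it is no result about the lists.

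**Figure D5:**
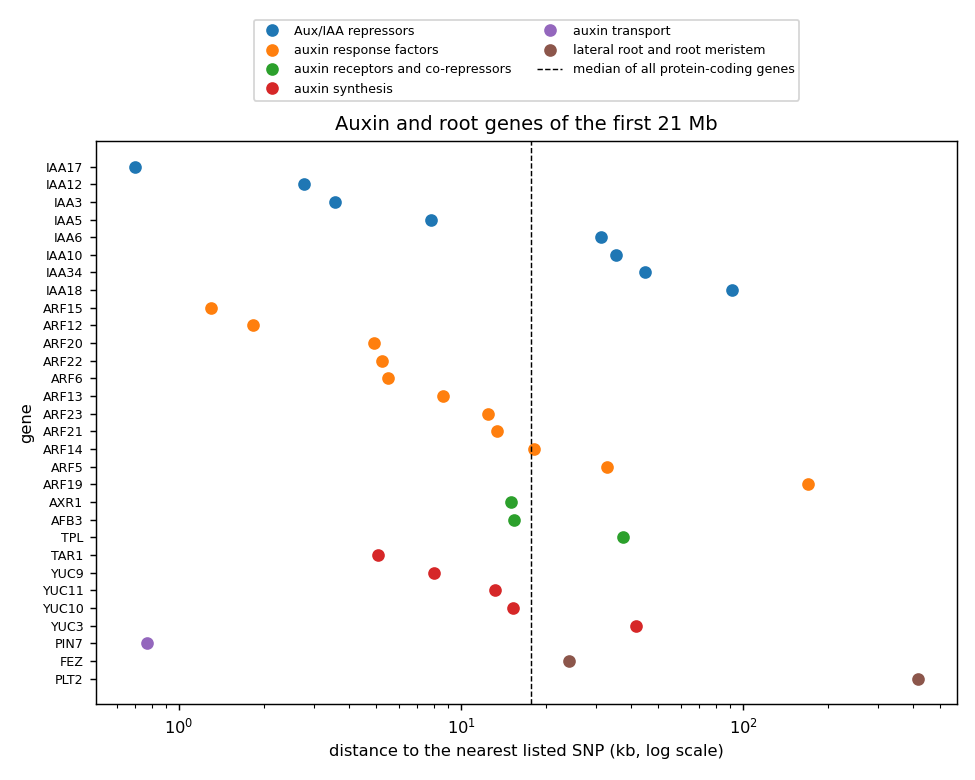
Distance in kb, on a log axis, from each of the 30 auxin and root genes of the first 21 Mb to the nearest listed SNP, 1 point per gene coloured by list, with the median of all protein-coding genes there (17.6 kb) as a dashed line. PLT2, ARF19 and IAA18 lie farthest to the right.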

How the data were processed

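Genomic DNA of seedlings was sequenced on an Illumina HiSeq instrument, per the labels' protocols. Per the series' design text, SNPs came from SNPtrack, and TAIR10 was the genome used, per the submitters' processing notes. The authors deposited a table of chromosome numbers and positions, with other columns absent per the file headers. The aligner, the caller's settings and what made a site homozygous are not stated by the sources used here. Depth is unknown, so no value carries a depth-based error. In the position columns, 5 cells that held no number were left out.

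Positions were counted in windows, zones and genes with Python 3.11.15, numpy 2.4.6, pandas 2.3.3 and scipy 1.17.1, and plotted with matplotlib 3.10.9. Intervals are exact at 95%, for counts (Poisson), shares (Clopper-Pearson) and ratios of densities (conditional binomial). The functions were tested on simulated data. No test was made, since 1 list names no sample.

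Gene spans came from the RefSeq table of TAIR10.1, whose nuclear chromosomes are those of TAIR10, and no gene coordinates are printed. Shifting the listed positions by up to 3000 bp raised the share in protein-coding genes from 44.4% of the whole list, unshifted, to 51.1%. A gene counts when it lies wholly inside a stretch, and overlapping genes both count a SNP. The named genes were all list members in the stretch, the 10 genes with the most SNPs (ties in order of position), the genes nearest to the ends of the longest gap and the neighbours of IAA18. ABO5, AT1G51930, AT1G52240, AT1G52720 and AT1G21320 were named after their values were seen. The members, limits and lists were chosen with earlier results of these data known. The reference base at each SNP and the share in coding sequence were planned but not analysed here, because no genome sequence was used.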

Additional observations from a re-analysis of the deposited data

How the results depend on the processing

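No paired analysis was possible because the list names no sample and there was 1 sample of each kind. Keeping at most 1 SNP per 1 kb lowered the density of the 21 Mb from 26.9 to 22.6 SNPs per Mb, as dropping SNPs must, and left the longest gap and the centromere-to-arm ratio (0.594) in place. Leaving out SNPs with no neighbour within 10 kb, which removes 202 of the 564, lengthened the longest gap from 1008 to 2489 kb, from position 18325370 to 20814063. A filter of this kind can only widen gaps. The distance from IAA18 to the nearest SNP, an alternative added after seeing the data, then rose from 91.3 to 980 kb. The centromere-to-arm ratio fell from 0.572 to 0.346 with 1 Mb on either side and was 0.620 with 3 Mb. The share of SNPs in protein-coding genes rose from 45.0% to 50.6% without the 2 Mb on either side of the centromere, where genes cover 12.3% of the bases. Ending the stretch at 20 Mb moved no value beyond its interval. The alternatives for the reference base and for coding sequence were not run. Unknown depth limits every statement on empty sequence: missing calls, heterozygous sites and reference sequence cannot be told apart, and rounded limits such as 15 and 21 Mb set the values given for each part.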
